A study of Mus musculus with 16 samples.

Results

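The data describe transcription factor binding at 4 mouse genes, Pde4d, Celf2, Rbm27 and Bmp2k. All ChIP-seq summits, the points of highest enrichment within a peak, were taken that lay in the gene bodies or within 20 kb to either side. These stretches covered 2794 kb, which is 0.103% of the genome, and held 508 of the 227116 summits of the series (0.224%). Summits of all libraries were merged into 1 element when each lay within 100 bp of the next, which gave 335 elements at the 4 genes out of 172918 in the genome. The genes were selected on measured values. They hold the strongest sites at day 1 of reprogramming at which a POU factor and Sox2 had summits within 100 bp of each other, so those day 1 scores are given as a description and carry no test.

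Reprogramming was started from OG2 MEFs, fibroblasts of mouse embryos in which the Oct4 promoter drives a GFP reporter. Retroviruses delivered 1 POU factor along with Sox2 and Klf4 (SK), and all groups shared Sox2, Klf4 and the chemically defined medium iCD1. Each cocktail is written as its POU factor followed by SK. The Oct4 libraries came from Oct4-SK at days 1, 5 and 7 and the Oct4defSox2 libraries from Oct4defSox2-SK at days 1 and 5. Sox2 was mapped at both of these days in the cocktails with Oct4, with Oct6 and with Oct4defSox2. The Oct4 S151M library came from day 1 of Oct4 S151M-SK. The Oct6 M151S library, from Oct6 M151S-SK, carries day 1 in its title but day 2 among its sample characteristics. Oct4defSox2 is Oct4 with its Sox2 interface mutated, and Oct4 S151M and Oct6 M151S swap between Oct4 and Oct6 a residue that affects POU homodimers. An Oct4 antibody was used for 6 libraries, a Sox2 antibody for 6 and an Oct6 antibody for 1, and the 3 inputs and wild-type Oct6 were not analysed here. Each group had 1 library, so there was no replicate error, no test across samples was possible, and every comparison is between libraries and not conditions. The factors are overexpressed from retroviruses in a mixed population of reprogramming cells.

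POU factors such as Oct4 read the octamer with a bipartite DNA-binding domain. Oct4 and Sox2 bind side by side on the composite SoxOct element, which is the hallmark of pluripotency enhancers, while POU homodimers use the palindromic MORE and its spaced variant MORE+1. In reprogramming fibroblasts many early binding sites lie far from gene starts, inside introns of somatic genes. Pde4d encodes a phosphodiesterase that breaks down cAMP, Celf2 an RNA-binding protein that regulates alternative splicing, Rbm27 an RNA-binding protein, and Bmp2k a serine/threonine kinase induced by BMP-2. RNA was not measured in these data.

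The DNA at the strongest sites was read from the mouse genome (GRCm38, mm10, plus strand) in windows of 201 bp centred on the element. The windows of the strongest co-bound elements are shown for Pde4d, Celf2 and Bmp2k, and a further Pde4d element is shown because its window held a composite POU match. Capitals mark matches to any of 7 searched motifs.
Pde4d +1143 kb, chr13:109592868-109593068, strongest Oct4/Sox2 element: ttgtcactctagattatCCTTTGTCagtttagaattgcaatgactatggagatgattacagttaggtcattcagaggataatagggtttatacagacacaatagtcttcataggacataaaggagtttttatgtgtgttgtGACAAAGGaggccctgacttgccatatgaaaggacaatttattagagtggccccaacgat
Pde4d +76.7 kb, chr13:108526585-108526785, strongest Oct4defSox2/Sox2 element of the gene: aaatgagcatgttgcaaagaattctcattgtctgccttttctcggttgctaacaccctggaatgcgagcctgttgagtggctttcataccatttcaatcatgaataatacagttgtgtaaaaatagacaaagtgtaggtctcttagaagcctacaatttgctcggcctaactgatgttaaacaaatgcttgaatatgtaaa
Pde4d +499 kb, chr13:108949006-108949206, POU element with no Sox2 summit: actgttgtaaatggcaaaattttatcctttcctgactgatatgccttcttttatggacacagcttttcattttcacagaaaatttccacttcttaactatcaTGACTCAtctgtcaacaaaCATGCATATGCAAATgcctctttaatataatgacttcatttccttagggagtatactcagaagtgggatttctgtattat
Celf2 +511 kb, chr2:6998855-6999055, strongest Oct4/Sox2 element of the gene: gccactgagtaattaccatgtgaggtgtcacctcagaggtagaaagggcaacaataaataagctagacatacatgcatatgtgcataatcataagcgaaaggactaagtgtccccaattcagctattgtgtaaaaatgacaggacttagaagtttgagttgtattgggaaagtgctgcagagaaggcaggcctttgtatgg
Bmp2k +18.8 kb, chr5:97016351-97016551, strongest Oct4defSox2/Sox2 element of the gene: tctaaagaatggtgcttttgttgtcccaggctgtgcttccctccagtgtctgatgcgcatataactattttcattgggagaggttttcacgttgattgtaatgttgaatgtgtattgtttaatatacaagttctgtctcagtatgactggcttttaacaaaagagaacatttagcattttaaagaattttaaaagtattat

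The plus sign and distance name an element by how far it lies from the annotated start of its gene, along the strand of the gene. In Pde4d +499 kb the capitals hold an octamer (ATGCAAAT, searched on both strands without mismatch), which lies inside a SoxOct match with 2 mismatches and overlaps a MORE match with 1 mismatch. The shared stretch reads CATGCATATGCAAAT at chr13:108949127-108949141, and the capitals before it are an AP-1 site, TGACTCA. In Pde4d +1143 kb the capitals are a pair of Sox sites (CCTTTGTC) on opposite strands, and no SoxOct, MORE, MORE+1 or octamer match was found. The windows of Pde4d +76.7 kb, Celf2 +511 kb and Bmp2k +18.8 kb held no match to any of the 7 motifs. These matches describe the letters of the window and do not show a site in use.

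How near these windows come to a POU motif was read from the match with the fewest mismatches, beside the share of all windows of elements with an Oct4-antibody summit that held a match at least as close, a measure added after the windows had been seen. The closest octamer in Celf2 +511 kb had 1 mismatch (56.2% of windows), and its closest MORE had 2 mismatches (38.8%) and was centred 6 bp from the Oct4 day 1 summit. Bmp2k +18.8 kb held an octamer with 1 mismatch (56.2%) 31 bp from that summit and a SoxOct with 4 (72.7%). Pde4d +1143 kb had no octamer closer than 2 mismatches (98%), and Pde4d +76.7 kb held a MORE+1 with 2 mismatches (15.8%). The close matches in Pde4d +499 kb were held by 5.82% (SoxOct), 15% (MORE) and 6.76% (octamer) of windows. Of the leading elements, Rbm27 +32.9 kb, whose window is not printed here, held a SoxOct with 2 mismatches as well.

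In GENCODE M21 on mm10, Pde4d (ENSMUSG00000021699.17) spans chr13:108449948-109953461 on the plus strand, Celf2 (ENSMUSG00000002107.18) spans chr2:6539694-7509563 on the minus strand, Rbm27 (ENSMUSG00000024491.16) spans chr18:42275353-42341542 on the plus strand and Bmp2k (ENSMUSG00000034663.13) spans chr5:96997689-97091867 on the plus strand. Pde4d held 313 summits in 204 elements, Celf2 137 in 105, Rbm27 30 in 13 and Bmp2k 28 in 13. Relative to size this came to 13.2 elements per 100 kb at Pde4d, 10.4 at Celf2, 12.2 at Rbm27 and 9.69 at Bmp2k, so the element number followed gene length. The flank of Rbm27 reaches the gene Lars and that of Bmp2k the gene Paqr3. By position 315 elements were intronic, 8 lay in exons of some transcript (3 of them in a UTR) and 12 lay in flanks, 4 upstream and 8 downstream. Intronic elements thus made up 94% (91 to 96.1), and introns made up 92.4% of the bases searched, so the intronic share follows from the regions chosen.

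Yield differed widely between libraries. The number of summits in the genome ranged from 1038 (Oct4defSox2 day 5) to 101170 (Oct4 S151M), read depth is not known from the summit lists, and scores were therefore compared only within a library. The score is the authors' −log10 of the MACS2 p-value at the summit. At the 4 genes the libraries had between 6 (Sox2 in Oct6-SK at day 5) and 212 summits (Oct4 S151M). Per Mb this was 1.58 times (Sox2 in Oct4defSox2-SK at day 5) to 7.55 times (Oct4defSox2 day 5) their number in the genome. The 7.55 rests on 8 summits, 4 of them at the strongest co-bound elements on which the genes were chosen. Oct4 S151M alone gave 41.7% of the summits, and merging the other 12 lists gave 178 elements in place of 335. The Oct6 M151S list was called at a looser threshold, with 12934 of its 22804 summits under a score of 4, and had 0 summits with a score of at least 10 at these genes.

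The choice of the genes rests on 2 orders of co-bound sites, each by the mean of the POU score and the Sox2 score. Among the 1628 Oct4/Sox2 sites of day 1, Pde4d +1143 kb was at the top with a mean of 168 (Oct4 296, Sox2 40.4), followed by Celf2 +511 kb with 135 (Oct4 244, Sox2 25). The nearest site outside the 4 genes had a mean of 113. Among the 2711 Oct4defSox2/Sox2 sites of day 1, Rbm27 +32.9 kb led with a mean of 124 (Oct4defSox2 236, Sox2 12.3) before Bmp2k +18.8 kb with 110 (Oct4defSox2 213, Sox2 5.95), and the nearest site outside had 103. In all 4 the POU score made up most of the mean. The Sox2 summit at Bmp2k ranked 4892 of 5794 in its library.

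Pde4d +1143 kb (chr13:109592905-109593031) lies in an intron 11.6 kb from the nearest annotated Pde4d start and had summits in 9 of the 13 libraries. Its Oct4 score was 296 at day 1, rank 2 of 8216 summits, and 189 at day 5, rank 10 of 4854, and no Oct4 summit was listed at day 7. Oct4defSox2 scored 231 at day 1 (rank 50 of 31070) and 26.7 at day 5 (rank 120 of 1038), and Oct4 S151M scored 389 (rank 1443 of 101170). The element thus ranked near the top for Oct4 at 2 days and lower for Oct4defSox2 at day 5. Sox2 scored 40.4 at day 1 (rank 53 of 15222) and 20.3 at day 5 (rank 503 of 5832) in Oct4-SK, and 11.1 at day 1 in Oct4defSox2-SK (rank 1834 of 5794). Oct6 M151S had a summit with a score of 3.05, whose −log10 q-value was 0.521. No Sox2 summit was listed in Oct6-SK cells or at day 5 in Oct4defSox2-SK cells.

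Celf2 +511 kb (chr2:6998929-6998982) is intronic, 82.3 kb from the nearest Celf2 start, and had summits in 7 libraries. Oct4 scored 244 at day 1 (rank 3 of 8216), 144 at day 5 (rank 17 of 4854) and 12.3 at day 7 (rank 1263 of 3638). Oct4defSox2 scored 313 at day 1 (rank 24 of 31070) and 27.8 at day 5 (rank 114 of 1038), and Oct4 S151M scored 959 (rank 76 of 101170), the highest score of that library at the 4 genes. The POU factors were thus among the strongest summits of their day 1 libraries here, whereas Sox2 was listed in 1 of 6 libraries, with a score of 25 (rank 320 of 15222) at day 1 in Oct4-SK. No Sox2 summit was listed here in Oct4defSox2-SK cells, although Oct4defSox2 itself ranked higher here than at the other 3 leading elements.

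Rbm27 +32.9 kb (chr18:42308194-42308326) is intronic, 9.14 kb from the nearest Rbm27 start, with summits in 8 libraries. Oct4 scored 74.4 at day 1 (rank 108 of 8216), 98.7 at day 5 (rank 34 of 4854) and 73.8 at day 7 (rank 42 of 3638). It was the only one of the 4 leading elements that stayed within the top 1.31% of the Oct4 library at each of the 3 days. Oct4defSox2 scored 236 at day 1 (rank 48 of 31070) and 19.8 at day 5 (rank 179 of 1038), and Oct4 S151M scored 317 (rank 2098 of 101170). Sox2 scored 8.21 in Oct4-SK (rank 6547 of 15222) and 12.3 in Oct4defSox2-SK (rank 1346 of 5794), both at day 1, and no Sox2 summit was listed at day 5. Its window held a SoxOct match with 2 mismatches, centred 10 bp from the Oct4 day 1 summit, and an AP-1 match.

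Bmp2k +18.8 kb (chr5:97016376-97016527) is intronic, 18.8 kb from the only annotated start of Bmp2k. With summits in 12 of the 13 libraries it was the most widely shared element of the 4 genes, and Sox2 in Oct4defSox2-SK at day 5 was the library without one. Oct4 scored 84.5 at day 1 (rank 70 of 8216), 14.2 at day 5 (rank 1268 of 4854) and 11.7 at day 7 (rank 1307 of 3638). Oct4defSox2 scored 213 at day 1 (rank 58 of 31070) and 15.3 at day 5 (rank 256 of 1038), and Oct4 S151M scored 150.9 (rank 6279 of 101170). High ranks were thus found at day 1 for Oct4 and Oct4defSox2. The 5 Sox2 summits scored between 5.27 and 10, and the best of them ranked at 34.7% of its library, counted from the strongest. Oct6 M151S scored 7.44, with a −log10 q-value of 3.03.

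**Figure D1:**
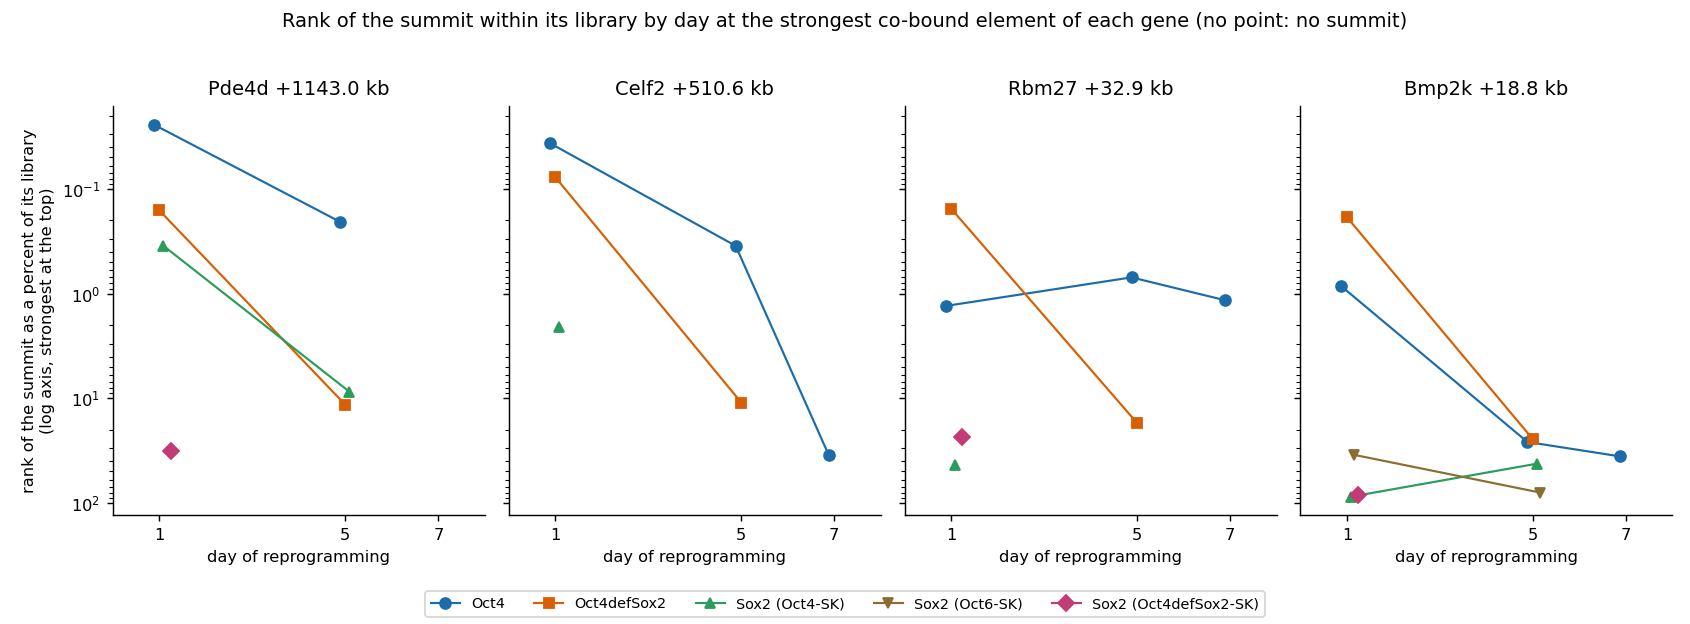
Rank of the summit as a percent of all summits of its library (log axis, strongest at the top) against the day, for Oct4, Oct4defSox2 and Sox2 in 3 cocktails at the strongest co-bound element of each gene, with 1 library per point. Oct4 at Rbm27 +32.9 kb stayed near 1% at all 3 days (1.31%, 0.7% and 1.15%), while at Celf2 +511 kb it went from 0.0365% to 34.7% and at Bmp2k +18.8 kb from 0.852% to 35.9% between days 1 and 7.

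The places of the 4 leading elements in the Oct4 lists (8216, 4854 and 3638 summits) are given as a description, since Pde4d and Celf2 were picked for Oct4 scores of day 1 and Rbm27 and Bmp2k for Oct4defSox2 scores of that day. As a share of the library, the rank of the summit went from 0.0365% at day 1 to 0.35% at day 5 and 34.7% at day 7 at Celf2 +511 kb, and from 0.852% to 26.1% and 35.9% at Bmp2k +18.8 kb. At Pde4d +1143 kb it was 0.0243% at day 1 and 0.206% at day 5, with no summit at day 7. Rbm27 +32.9 kb had 1.31%, 0.7% and 1.15%. In the Oct4defSox2 lists (31070 and 1038 summits) all 4 elements lay in the top 0.187% at day 1 and between 11% and 24.7% at day 5. Each of them thus kept an Oct4defSox2 summit, at a lower place in a shorter list. With 1 library per day, the spread between repeat libraries is not known, and the day 7 Oct4 library also differed in read length from the others.

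At Pde4d and Rbm27 the Sox2 summits stood apart from the POU summits, while at Celf2 and Bmp2k the positions of both overlapped. At Pde4d +1143 kb the 5 other POU summits lay within 11 bp of the Oct4 day 1 summit, whereas the Sox2 summits lay at -79 bp (day 1) and -83 bp (day 5) from it in Oct4-SK and at -126 bp in Oct4defSox2-SK. At Rbm27 +32.9 kb the POU summits lay within 27 bp, and the Sox2 summits lay 100 bp and 106 bp downstream. At Celf2 +511 kb the Sox2 summit lay at -12 bp and the POU summits between -17 and 36 bp. At Bmp2k +18.8 kb the Sox2 summits were spread from -13 to 138 bp and the POU summits from -8 to 72 bp. The distance that counts as co-bound therefore matters. The day 1 Oct4defSox2 and Sox2 summits of Oct4defSox2-SK cells at Pde4d +1143 kb were not co-bound within 100 bp, and neither were the day 1 summits of Oct4 and Sox2 in Oct4-SK at Bmp2k +18.8 kb.

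**Figure D2:**
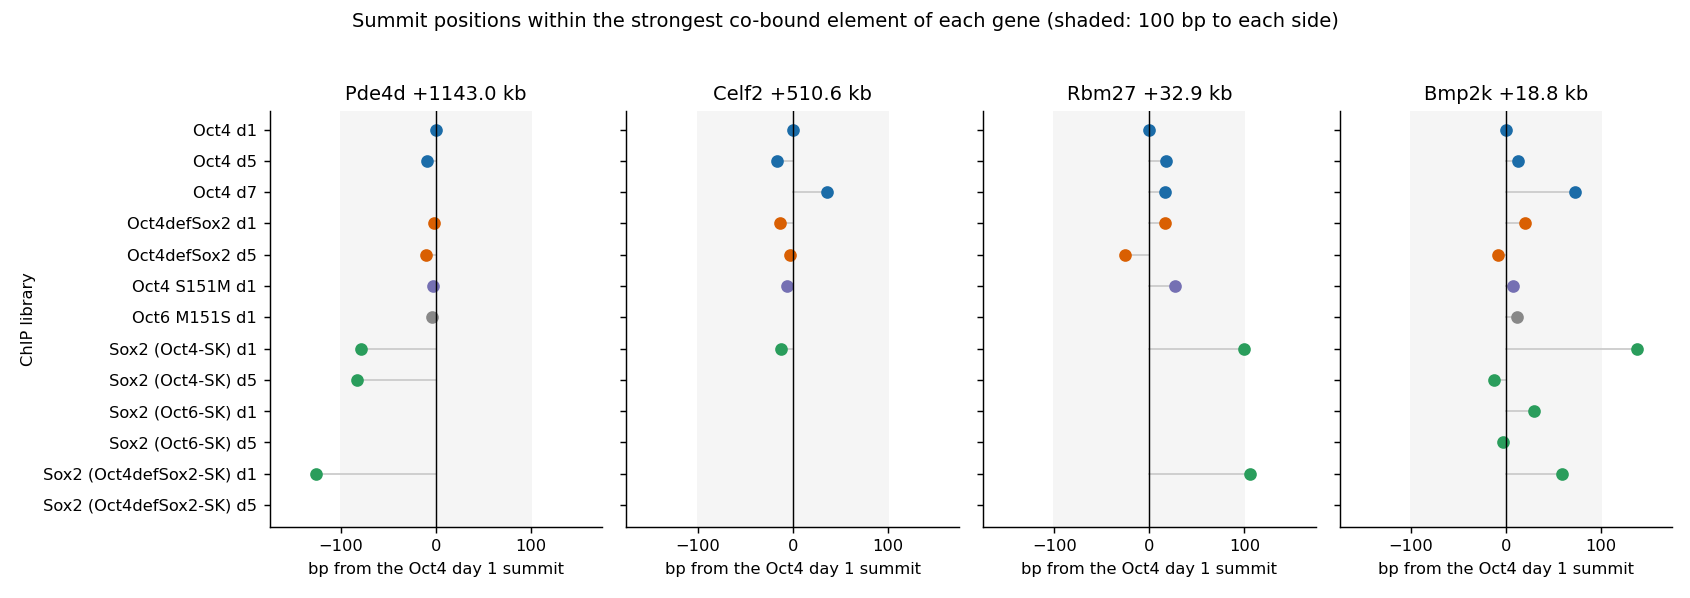
Position of each library's summit in bp from the Oct4 day 1 summit, on the plus strand, at the strongest co-bound element of each gene (shaded, 100 bp to each side). The Oct4-antibody summits lie inside the shaded range, while the Sox2 summits lie at -126 to -79 bp at Pde4d and at 100 to 106 bp at Rbm27.

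Of the 335 elements, 261 had a summit in 1 library, 41 in 2, 12 in 3, 11 in 4 or 5, and 10 in 6 or more. Elements with summits in 2 or more libraries made up 22.1% (74 of 335, Wilson 95% interval 18 to 26.8, counting error only), beside 15.8% of all elements in the genome. Elements with 6 or more made up 2.99% (1.63 to 5.41), beside 1.1% in the genome. Without the 4 leading elements these shares were 21.1% (17.1 to 25.9) and 1.81% (0.833 to 3.9). Without these elements the share with 6 or more was thus within counting error of the genome. The share with 2 or more was above it. By gene this share, leading elements included, was 24% (18.7 to 30.3) at Pde4d and 46.2% (23.2 to 70.9, 6 of 13) at Rbm27, both above the genome, and 15.2% (9.6 to 23.3) at Celf2 and 23.1% (8.18 to 50.3, 3 of 13) at Bmp2k, both within counting error of it. Without Pde4d it was 19.1% (13.3 to 26.7), also within counting error. Of the elements of 1 library, 158 belonged to Oct4 S151M, 60.5% (54.5 to 66.3), beside 56.3% of all such elements in the genome. Oct4defSox2 at day 1 had 26, 9.96% (6.89 to 14.2), beside 7.94%, and Sox2 in Oct4-SK at day 1 had 21, 8.05% (5.32 to 12), beside 5.98%. Oct6 M151S had 24, 9.2% (6.26 to 13.3), beside 13.4%. The first 3 shares were within counting error of the genome, and that of Oct6 M151S was just under it.

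**Figure D3:**
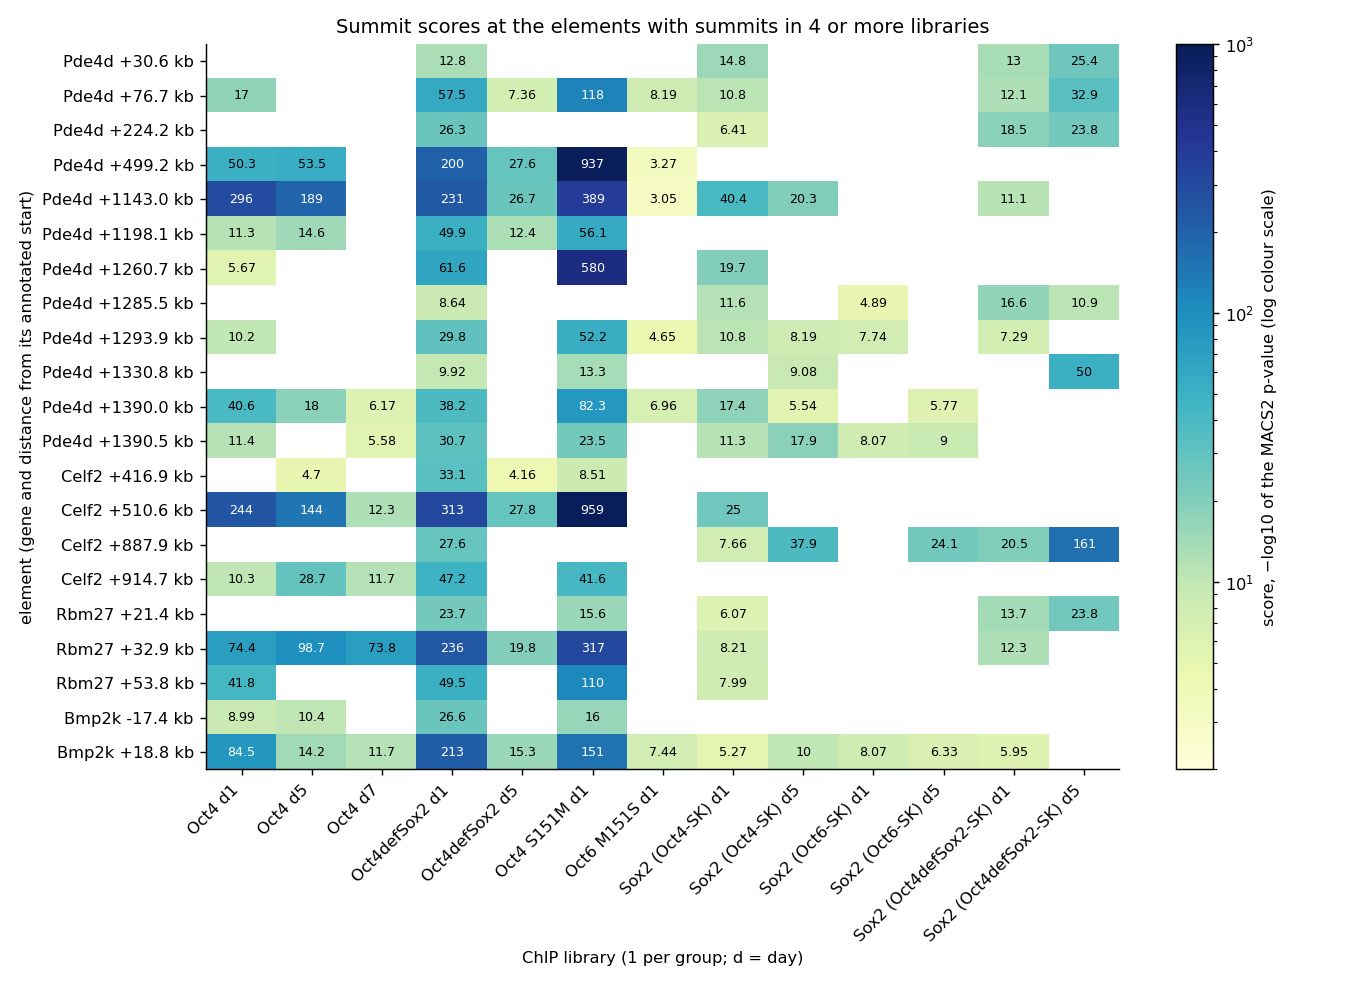
Scores (−log10 of the MACS2 p-value, log colour scale) of the 21 elements with summits in 4 or more libraries, rows by gene and distance from the gene start in kb, columns by library, empty where no summit was listed. Bmp2k +18.8 kb has 12 of 13 cells filled, and all 21 rows have a score for Oct4defSox2 at day 1.

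Pde4d held 6 elements with summits in 6 or more libraries. Pde4d +499 kb (chr13:108949069-108949143, intron, 88.9 kb from the nearest start) had summits in 6 libraries, none of them Sox2. Oct4 scored 50.3 at day 1 and 53.5 at day 5, Oct4defSox2 200 and 27.6 at the same days, and Oct4 S151M 937 (rank 88 of 101170). It was the strongest Oct4 S151M element of the gene, and it is the window with the octamer shown above. Pde4d +76.7 kb (chr13:108526616-108526755, intron, 76.7 kb from the nearest start) had 8 libraries. Its Oct4 score was 17 at day 1 with none at later days, Oct4defSox2 scored 57.5 and 7.36, and Sox2 in Oct4defSox2-SK scored 12.1 at day 1 (rank 1363 of 5794) and 32.9 at day 5 (rank 1038 of 21563). Here Sox2 kept a summit at day 5 in the cocktail of the mutant, and Oct4 had none at that day in its own.

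The 3 remaining elements of this kind lie near the end of Pde4d. Pde4d +1294 kb (chr13:109743793-109743989) had 8 libraries with scores between 4.65 (Oct6 M151S) and 52.2 (Oct4 S151M), and its Sox2 summits lay 122 to 153 bp from that of Oct4. Pde4d +1390.0 kb (chr13:109839848-109840006) had 9 libraries. It was the only Pde4d element with Oct4 at all 3 days, at scores of 40.6, 18 and 6.17. Its neighbour Pde4d +1390.5 kb (chr13:109840373-109840497), 367 bp away, had 8 libraries, among them Oct4 at day 1 (11.4) and day 7 (5.58) and Sox2 in Oct4-SK (11.3 and 17.9) and Oct6-SK cells (8.07 and 9) at days 1 and 5. Oct4defSox2 scored 38.2 and 30.7 at this pair at day 1 and had no summit at day 5. All 3 elements are intronic, and their windows held no SoxOct, MORE, MORE+1 or octamer match.

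Along Pde4d the elements were spread unevenly. Cut into 3 equal parts of 501 kb, the gene body held 44, 60 and 95 elements from its start to its end. Of the 14 Oct4 day 1 elements 10 lay in the last part, as did 8 of 8 Sox2 elements of Oct4-SK cells at day 5. For Sox2 in Oct4defSox2-SK cells at day 5 the counts were 9, 4 and 9. The last part also held 8 of the 11 Pde4d elements within 1 kb of an annotated start. The gene body of Celf2, cut into 3 parts of 323 kb, held 20, 56 and 28 elements from its start to its end. Of its 20 Oct4defSox2 day 1 and 4 Oct4 day 1 elements, 0 lay in the part nearest the start. That part held 13 of 54 Oct4 S151M elements, beside 20 of 104 elements of any library. The parts were chosen after the positions had been seen.

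**Figure D4:**
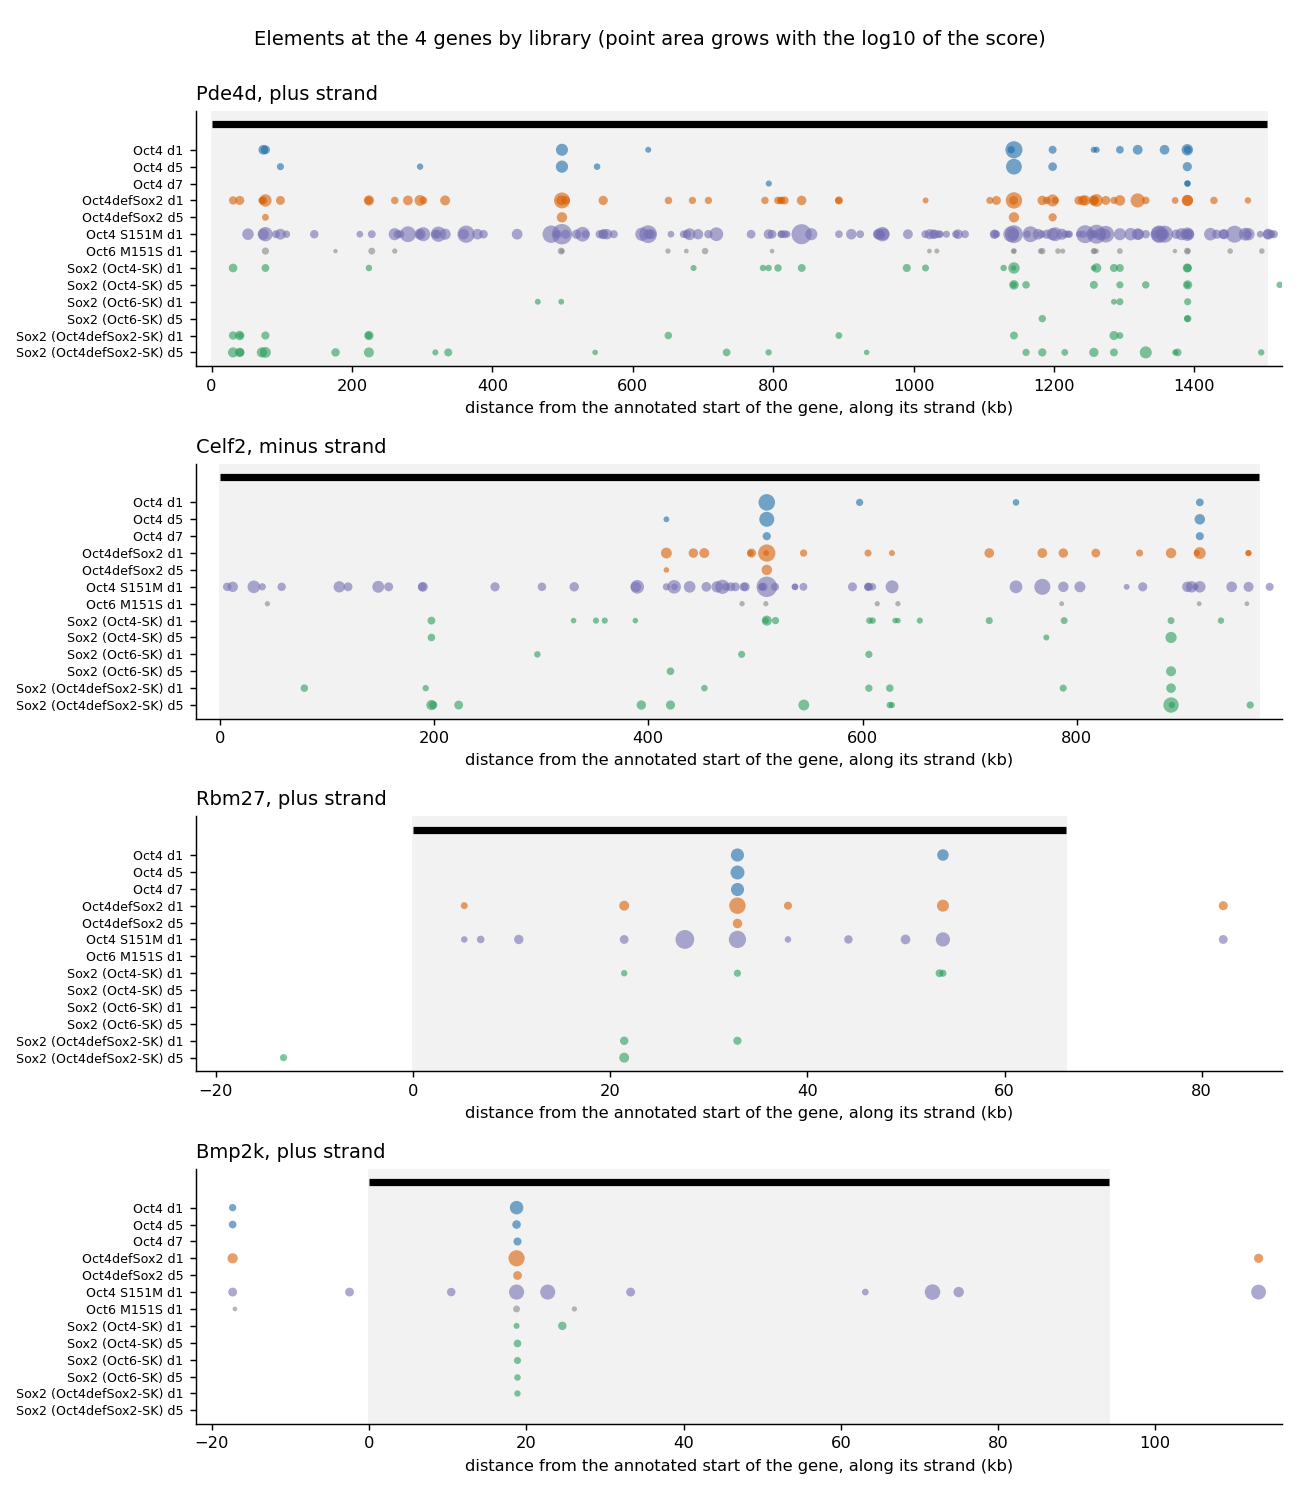
Elements of each library at the 4 genes against distance from the annotated gene start in kb, along the strand of the gene (black bar and shading, gene body), with point area growing with the log10 of the score. Oct4 S151M has the most points in each panel, and columns of points mark the elements of many libraries, such as Bmp2k +18.8 kb with 12 libraries.

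Celf2 held a different kind of shared element besides Celf2 +511 kb. Celf2 +888 kb (chr2:6621617-6621719) lies in an exon of some transcript, 5.49 kb from the nearest start, and had no Oct4 summit at any day and none of Oct4 S151M. Sox2 was listed in 5 of 6 libraries. In Oct4defSox2-SK cells its score was 20.5 at day 1 (rank 239 of 5794) and 161 at day 5 (rank 9 of 21563), the best Sox2 rank at the 4 genes. In Oct4-SK cells it was 7.66 at day 1 (rank 7031 of 15222) and 37.9 at day 5 (rank 67 of 5832), and in Oct6-SK cells 24.1 at day 5 (rank 68 of 2673) with no summit at day 1. By place in its list Sox2 thus ranked higher at day 5 than at day 1 in Oct4-SK and Oct4defSox2-SK. These are lists of different length with 1 library each, so no order of the days is read from them. In Oct6-SK, with no day 1 summit, the days cannot be compared. It was the only element with Sox2 of all 3 cocktails at day 5. Oct4defSox2 had a day 1 summit with a score of 27.6.

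Celf2 +915 kb (chr2:6594789-6594846), intronic and 2.02 kb from the nearest start, was bound by POU factors alone. Oct4 scored 10.3, 28.7 and 11.7 at days 1, 5 and 7, Oct4defSox2 47.2 at day 1, and Oct4 S151M 41.6. By rank the Oct4 summit was at 55.2% of its library at day 1, 8.41% at day 5 and 35.9% at day 7, in lists of 8216, 4854 and 3638 summits with 1 library each, so no order of the days is read from it. It had no Sox2 summit in any of the 6 libraries.

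Beside its leading element, Rbm27 held 2 elements with summits in 4 or more libraries. Rbm27 +21.4 kb (chr18:42296689-42296862, intron, 1.47 kb from the nearest start) had no Oct4 summit, but had Oct4defSox2 at day 1 (23.7), Oct4 S151M (15.6), and Sox2 in Oct4-SK at day 1 (6.07) and in Oct4defSox2-SK at days 1 (13.7) and 5 (23.8). Rbm27 +53.8 kb (chr18:42329097-42329113, intron) had Oct4 at day 1 (41.8), Oct4defSox2 (49.5), Oct4 S151M (110) and Sox2 in Oct4-SK (7.99), and 100% of its window was repeat-masked. Neither had a POU summit at day 5. The strongest Oct4 S151M summit of the gene, at Rbm27 +27.6 kb (chr18:42302927, score 539, rank 730 of 101170), had no summit of another library in its element. Oct6 M151S and Sox2 in Oct6-SK cells had no summit at Rbm27.

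Bmp2k had 3 elements with summits in 2 or more libraries. Bmp2k -17.4 kb (chr5:96980292-96980379), in the upstream flank, had Oct4 at days 1 (8.99) and 5 (10.4), Oct4defSox2 (26.6) and Oct4 S151M (16). In the downstream flank, Bmp2k +113 kb (chr5:97110811-97110853) had Oct4defSox2 (18) and Oct4 S151M (137, rank 7112 of 101170) and held a SoxOct match with 2 mismatches. The strongest Oct4 S151M summit of the gene (chr5:97069356, score 173, rank 5269 of 101170) lay in a UTR exon, had no partner in other libraries and held a MORE match with 1 mismatch. Outside Bmp2k +18.8 kb, 9 of the 16 summits of this gene were those of Oct4 S151M, the library that gave 44.5% of the summits of the series.

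Of the 335 elements 15 lay within 1 kb of an annotated start of their gene, 11 at Pde4d, 4 at Celf2 and none at Rbm27 or Bmp2k. This is 4.48% (2.73 to 7.26), where such stretches made up 1.98% of the bases searched. Counting starts of any gene, 17 elements (5.07%, 3.19 to 7.98) lay that near, beside 8.71% of all elements in the genome. Of the 15, 11 had a summit in 1 library. The most shared was a Pde4d element at chr13:109633364-109633383, 0.593 kb from a start, with Oct6 M151S (5.93), Sox2 in Oct6-SK at day 5 (9) and Sox2 in Oct4defSox2-SK at day 5 (12.4). The Oct4 S151M summit at chr13:109922382 scored 65.5 (rank 16323 of 101170). None of the 15 had an Oct4 summit, but only 27 of all 335 elements had one at any day, so no absence is read from it.

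How far Oct4 binding at these genes was kept over time was measured as the share of day 1 summits with a later summit within 100 bp. In Oct4-SK cells 9 of 22 day 1 summits had a day 5 summit, 40.9% (23.3 to 61.3), beside 24.5% of all Oct4 day 1 summits, and 6 of 22 had a day 7 summit, 27.3% (13.2 to 48.2), beside 13.1%. Without the 4 leading elements the shares were 27.8% (12.5 to 50.9) and 16.7% (5.84 to 39.2), which is within counting error of the library as a whole. Leaving out Pde4d gave 62.5% (30.6 to 86.3) and 50% (21.5 to 78.5), on 8 summits that include the leading elements of Celf2, Rbm27 and Bmp2k. Looking back, 9 of 13 Oct4 day 5 summits had a day 1 summit, 69.2% (42.4 to 87.3), beside 41.5%, and 55.6% (26.7 to 81.1) without the 4 leading elements. The day 1 summits that had a day 5 partner scored between 8.99 and 296 (median 50.3), and the 13 without scored between 5.14 and 41.8 (median 10.2), while in the whole library the medians were 18.3 and 10.1. Of the 9, 4 are the leading elements picked for their day 1 scores, and without them the 5 others scored between 8.99 and 50.3 (median 11.3).

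Across the 3 days, 27 elements had an Oct4 summit. Of these, 5 had it at days 1, 5 and 7, 4 at days 1 and 5, 1 at days 1 and 7, 12 at day 1 alone, 4 at day 5 alone and 1 at day 7 alone. The share with all 3 days was 18.5% (8.18 to 36.7), beside 6.48% of all elements with Oct4, and 8.7% (2.42 to 26.8) without the leading elements, which hold 3 of the 5. The share with days 1 and 5 was 14.8% (5.92 to 32.5), beside 9.57%, and that with day 1 alone was 44.4% (27.6 to 62.7), beside 44.5%. Apart from the leading elements, the day patterns were thus within counting error of the genome. The 5 kept at all days were Pde4d +1390.0 kb, Celf2 +511 kb, Celf2 +915 kb, Rbm27 +32.9 kb and Bmp2k +18.8 kb. Elements first seen after day 1 were weak, with day 5 scores of 4.70 to 8.10 and a day 7 score of 5.44.

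Oct4defSox2 had 82 summits at these genes at day 1 and 8 at day 5, and each of the 8 was a site of day 1. In the whole lists 731 day 1 summits had a day 5 summit, and the day 5 list held 1038. The share of that list with a day 1 summit was not counted, so no trait of these genes is read from the 8. The share kept was 9.76% (5.03 to 18.1), beside 2.35% of its day 1 summits in the genome, and 5.13% (2.01 to 12.5) without the 4 leading elements. Those 8 elements had day 1 scores between 33.1 and 313 (median 207), against 4.41 to 106 (median 13.7) for the 74 that were not kept. The first median rests on the 4 leading elements, which were picked for their scores, and the other 4 scored between 33.1 and 200 (median 53.7), while in the whole library the kept summits had a median of 59.6. The 4 leading elements, Pde4d +76.7 kb and Pde4d +499 kb were among them. The others were Pde4d +1198 kb (49.9 at day 1, 12.4 at day 5) and Celf2 +417 kb (33.1 and 4.16), both named after their values had been seen. When both lists were cut to equal numbers of their strongest summits, 6 of 8 were kept (75%), beside 36.4% in the genome, and 2 of 4 without the leading elements.

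Oct4defSox2 and Oct4 met at most Oct4 sites of day 1. Of the 22 Oct4 summits 17 had an Oct4defSox2 summit, 77.3% (56.6 to 89.9), beside 57.4% in the genome and 72.2% (49.1 to 87.5) without the 4 leading elements. With lists of equal length the share was 72.7% (16 of 22), beside 37.1%, and 66.7% (43.7 to 83.7) without the leading elements. In the other direction 17 of 82 Oct4defSox2 summits had an Oct4 summit, 20.7% (13.4 to 30.7), beside 15.2%, and 16.7% (10 to 26.5) without the leading elements. The Oct4defSox2 summits shared with Oct4 scored between 11.1 and 313 (median 49.9), and the others between 4.41 and 33.8 (median 11.6). In the whole Oct4defSox2 library the medians were 24.6 for shared and 10.2 for unshared summits, and the median of the shared ones at these genes was 47.2 without the 4 leading elements. The median of the unshared sites at these genes was thus close to that of the library as a whole, 11.2.

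Oct4 S151M, with its 212 summits, met 19 of the 22 Oct4 day 1 summits, 86.4% (66.7 to 95.3), beside 78.2%, and 83.3% (60.8 to 94.2) without the 4 leading elements. With lists cut to equal numbers of their strongest summits it met 8 of 22 (36.4%), beside 20.4%, and 22.2% without the leading elements. It met 42 of 82 Oct4defSox2 summits, 51.2% (40.6 to 61.7), beside 43.5%. Of its own summits, 8.96% (5.81 to 13.6) had Oct4 at day 1, beside 6.34%, and 19.8% (15 to 25.7) had Oct4defSox2, beside 13.3%. The last share was 18.3% (13.6 to 24.1) without the 4 leading elements. The Oct4 S151M summits shared with Oct4 had a median score of 110 (16 to 959), or 64.7 without the leading elements, and those not shared 17.6 (4.84 to 834), while in the whole library the medians were 50.9 and 18.5. The strongest of those not shared was at Pde4d +841 kb (chr13:109290452-109290476), with a score of 834 beside an Oct4defSox2 score of 20.3 and no Oct4 summit. It was named after its value had been seen.

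Oct6 M151S had 38 summits at the 4 genes, 24 of them alone in their element. In the genome it had 22804 summits and 19583 elements to itself, so being alone was not more common here. They met 5 of 22 Oct4 day 1 summits, 22.7% (10.1 to 43.4), beside 8.39%, and 3 of 18 without the leading elements, 16.7% (5.84 to 39.2). Its highest score here was 8.19, at Pde4d +76.7 kb.

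Sox2 in Oct4-SK cells had 42 summits at day 1 and 13 at day 5. Of the 42, 7 had a day 5 summit, 16.7% (8.32 to 30.6), beside 7.23%, and 6 of 38 without the 4 leading elements, 15.8% (7.44 to 30.4). In Oct4defSox2-SK cells Sox2 had 21 summits at day 1 and 35 at day 5, and 9 of the 21 were kept, 42.9% (24.5 to 63.5), beside 32.7%. None of these 9 was at a leading element. Sox2 in Oct6-SK cells had 9 and 6 summits. At day 1, 10 of 42 Sox2 summits of Oct4-SK cells had a Sox2 summit in Oct4defSox2-SK cells, 23.8% (13.5 to 38.5), beside 10.6%, and 18.4% (9.22 to 33.4) without the leading elements. Of 83 elements with Sox2, 54 had no POU summit of any kind, 65.1% (54.3 to 74.4), beside 72.2% of all Sox2 elements in the genome, and 28 of the 54 were at Celf2.

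The rule that chose the genes used the overlap of POU factors and Sox2, which is given here for completeness. Of the 22 Oct4 day 1 summits 8 had Sox2 within 100 bp, 36.4% (19.7 to 57), beside 19.8%, and of the 82 Oct4defSox2 summits 8 did, 9.76% (5.03 to 18.1), beside 8.73%. Pde4d held 5 of each. Besides the leading elements, the Oct4 and Sox2 co-bound sites were Pde4d +1390.0 kb, Pde4d +1390.5 kb, Pde4d +76.7 kb, Rbm27 +53.8 kb and Pde4d +1261 kb (chr13:109710654-109710730), where Oct4 scored 5.67 and Sox2 19.7 and which was named after its values had been seen. Nothing is read from these shares.

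**Figure D5:**
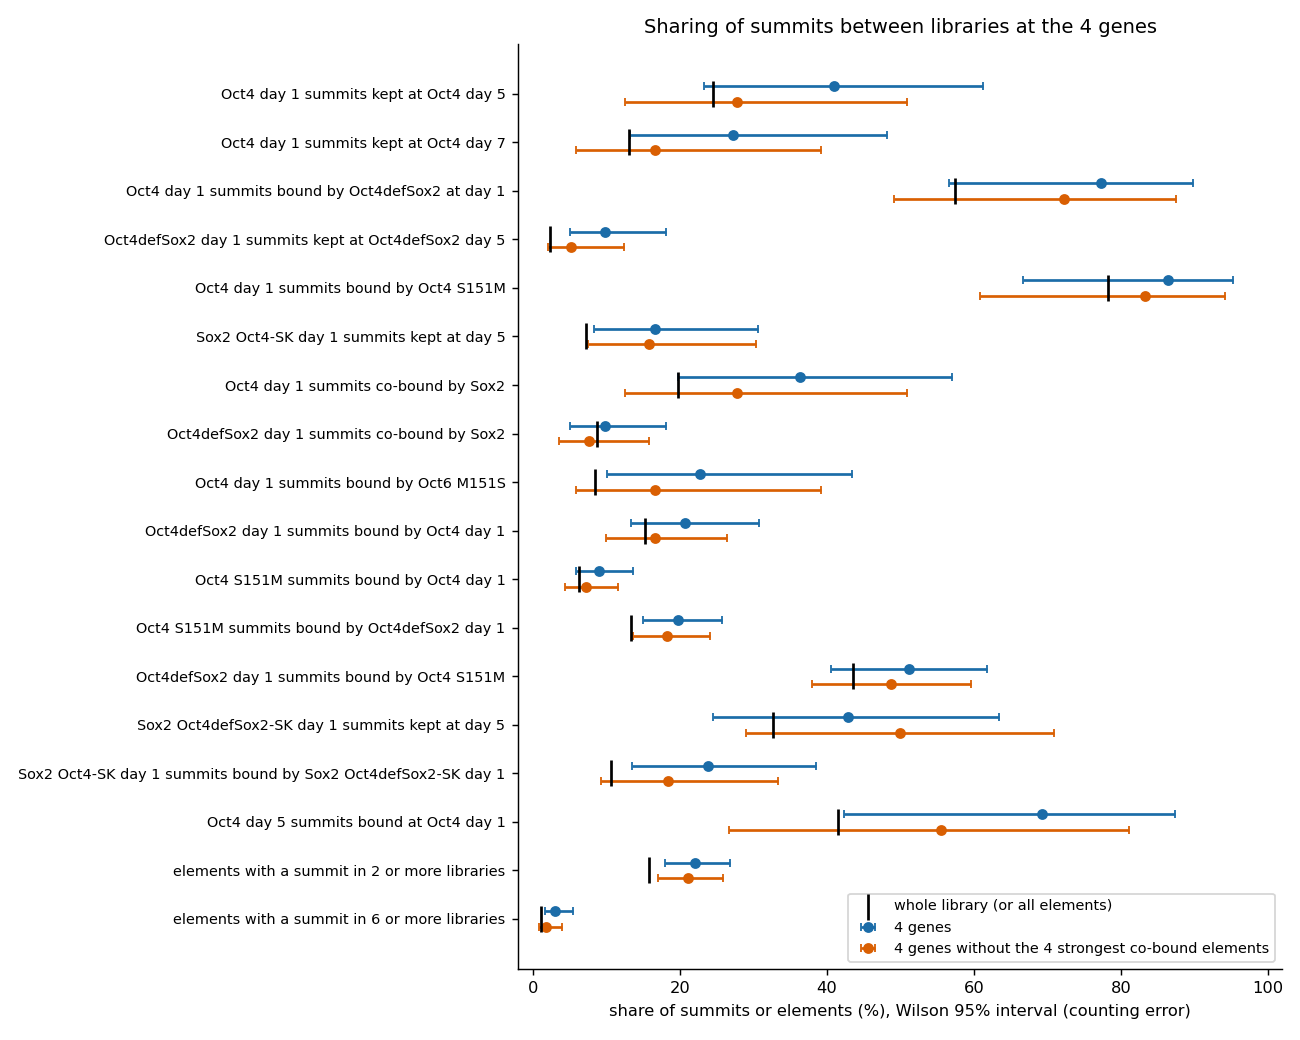
Share (%) of summits of a library that had a summit of another within 100 bp, and share of elements with several libraries, at the 4 genes (blue) and without the 4 strongest co-bound elements (orange), with Wilson 95% intervals for counting error, and in the whole library (black tick). For Oct4 day 1 summits kept at day 5 the share is 40.9% with and 27.8% without these elements, beside 24.5% in the library.

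Over the 4 genes together, motif content was near that of the genome. Of 255 elements with an Oct4-antibody summit, 17 held a SoxOct match, 6.67% (4.2 to 10.4), beside 5.82% of all such windows, and 47 held MORE or MORE+1, 18.4% (14.2 to 23.6), beside 20.4%. The octamer was in 13, 5.1% (3 to 8.53), beside 6.76%, a Sox site in 22, 8.63% (5.77 to 12.7), beside 8.78%, and an AP-1 site in 23, 9.02% (6.09 to 13.2), beside 8.62%. Among these elements with an Oct4-antibody summit the Sox site, picked out of the motifs counted here, was not spread evenly. All 22 with it were at Pde4d, 13.3% of its 165 (8.97 to 19.4), above the genome share. At Celf2 0 of 69 had it (upper bound 5.27%), below that share. Rbm27 had 0 of 11 (upper bound 25.9%) and Bmp2k 0 of 10 (27.8%), both within counting error of it. Celf2 did hold Sox sites at elements with Sox2 alone, such as chr2:6884089-6884179. Among the 22 elements with Oct4 at day 1, 2 held SoxOct (Pde4d +499 kb and Rbm27 +32.9 kb) and 3 held MORE or MORE+1. These are 9.09% (2.53 to 27.8), beside 14.8% of all elements with Oct4 at day 1, and 13.6% (4.75 to 33.3), beside 10.7%. Among 165 elements with Oct4 S151M and neither Oct4 nor Oct4defSox2, 42 held MORE or MORE+1, 25.5% (19.4 to 32.6), beside 26.5% of all such elements, and 9 held SoxOct, 5.45% (2.9 to 10), beside 4.33%. Among 56 elements with Sox2 and no Oct4-antibody summit, 0 held a POU match, with an upper bound of 6.42%, beside 2.8% of all such elements, and 9 held a Sox site, 16.1% (8.69 to 27.8), beside 16.5%. The shares of the 3 binding classes were each within counting error of the genome.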

How the data were processed

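Per the submitters' processing notes and the labels, reads were aligned to mm10 with Bowtie2 2.2.5, and the authors called peaks and summits with MACS2 (version not given in the sources used here). The deposited files list summits with a score, the p-value of MACS2 as its −log10, and for Oct4 S151M and Oct6 M151S also the fold enrichment as a ratio made by the authors. Summit lists hold no read counts, so depth is not known from them. Scores were not scaled between libraries and were ranked within each.

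Summits of the 13 libraries were assigned to the 4 genes with GENCODE M21 (gene body and 20 kb to either side) and merged into 1 element within 100 bp. Sharing was counted within 100 bp, with Wilson 95% intervals that cover counting error among summits only. Windows of 201 bp were searched on both strands for SoxOct (up to 2 mismatches), MORE and MORE+1 (up to 1), the octamer ATGCAAAT, Sox (CCATTGT or CCTTTGT followed by C, G or T), AP-1 (TGACTCA or TGAGTCA) and KLF (GGGCGGGGC, GGGCGTGGC, GGGTGGGGC or GGGTGTGGC), all without mismatch unless stated. Overlapping matches were all counted. The analysis used Python 3.11.15 with numpy 2.4.6, pandas 2.3.3 and matplotlib 3.10.9, and its steps were tested on simulated data.

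Named were, at each gene, the strongest co-bound element of each kind, elements with summits in 6 or more libraries, the 3 in most libraries, the strongest of Oct4 S151M and any within 1 kb of an annotated start. Members, lists and motifs were chosen with earlier results of these data known. With 1 library per group no test was made. Alternatives changed the sharing distance, flank, score minimum, list length, motif settings and the genes, libraries or leading co-bound elements left out.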

Additional observations from a re-analysis of the deposited data

Results flagged for a closer look

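Sox2 summits at the 4 genes moved in opposite directions between days 1 and 5 in 2 cocktails. In Oct4-SK cells there were 42 at day 1 and 13 at day 5, and in Oct4defSox2-SK cells there were 21 at day 1 and 35 at day 5. The difference was not tested, since each value is 1 library. The whole lists moved in the same directions, from 15222 to 5832 summits in Oct4-SK and from 5794 to 21563 in Oct4defSox2-SK cells. As a share of its library, Sox2 at the 4 genes went from 0.276% to 0.223% and from 0.362% to 0.162%, lower at day 5 in both.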

How the results depend on the processing

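No paired analysis was possible because each group had 1 library. Of 156 alternative values for 12 results, 133 lay within the counting interval (for the element count, within 1.5 times) and 23 did not. The element count of 335 became 215 with a score of at least 10, 131 without Pde4d and 178 without Oct4 S151M, an alternative chosen after seeing the data. The share of elements in 2 or more libraries was 17.3% at 50 bp and 27.5% at 250 bp. The share of all elements in the genome was not counted at these distances. Oct4 day 1 summits kept at days 5 and 7 came to 62.5% and 50% without Pde4d, on 8 summits that include leading elements. Oct4 summits with Oct4defSox2 came to 93.3% with a score of at least 10 (60.6% in the whole library), and those with Oct4 S151M to 95.5% at 250 bp (88.4%) and 100% with that minimum (86.7%). With lists of equal length, Oct4 with Oct4 S151M gave 36.4% (20.4% in the whole library), Oct4defSox2 kept at day 5 gave 75% (36.4%), Sox2 of Oct4-SK cells kept at day 5 gave 35.7% (14.1%) and Oct4defSox2 with Sox2 gave 23.1% (15.6%). At 250 bp with whole lists the last came to 19.5% (12.6%). Leaving out the 4 leading elements as well, also chosen after seeing the data, made the equal-length shares 22.2%, 50%, 33.3% and 18.2%. The share with SoxOct, 6.67%, came to 0.392% with 1 mismatch fewer and 3.53% in windows of 50 bp to each side. Without Pde4d it came to 3.33%, and MORE matches came to 1.18% with 1 mismatch fewer. The share over all windows of the genome was not counted with fewer mismatches or in the narrower windows. The cause of these shifts was not tested. Read depth is not known from the summit lists, so a library with no listed summit may still have had signal there.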
